A study of Rattus norvegicus with 6 samples.

Results

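The data describe 39 listed genes of the antioxidant and glutathione system in the retina of diabetic rats with and without Danshen. The list was written by function, from the redox regulators Nfe2l2 and Keap1 to the glutathione S-transferases. A gene was measured where a probe row was named for it alone, and where a gene had several such rows the strongest one on average counted. This gave 38 genes among the 18166 genes with a row of their own, and each of the 38 had a single row. The remaining gene, Gstt1, was present only on rows shared with Gstt3. Affymetrix Rat Gene 2.0 ST arrays, on which biotin-labelled cDNA binds to short probes along each transcript, were hybridized with total RNA from retinas. All rats were male SD rats that were fed a high fat diet for 4 weeks from the age of 5 weeks and were then given streptozotocin, a toxin of insulin-producing cells, at 30 mg/kg. The Danshen-treated group (HCDDP in the study, 3 arrays) received Compound Danshen Dripping Pill, made from Danshen, notoginseng and borneol, through a gavage tube for 12 weeks (0.4 g/kg/d), and the diabetic group (3 arrays) received saline. The labels give 17 weeks as the age in both groups, which is less than the steps of the study add up to. No array of a healthy rat was analysed here, so every difference is between treated and untreated diabetic retinas. The sources do not say whether 1 rat or a pool was put on an array, and the p-values therefore measure only how far these samples scatter, which may be technical scatter.

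The arrays differed among themselves within the groups. The range between the 10th and the 90th percentile of the log2 signal over all genes was 4.45 to 4.48 in the arrays numbered 3 of both groups and 4.92 to 5.19 in the other arrays. The deposited log2 signals were compared between the groups by limma, with p-values adjusted (Benjamini-Hochberg) across the 18166 genes. Markers of photoreceptors were strong on all arrays, with a mean log2 signal of 9.95 to 10.6 over 11 of 12 listed genes. Markers of the lens (7 of 13 genes, 11.2 to 11.7) and of the corneal and scleral stroma (12 of 12 genes, 9.18 to 9.82) were also strong, so the RNA held other tissue of the eye.

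Cells of the retina consume much oxygen and hold membranes rich in polyunsaturated lipid, and reactive oxygen species are a well-known part of diabetic damage. Superoxide is turned into hydrogen peroxide by superoxide dismutases, and hydrogen peroxide is removed by catalase, by glutathione peroxidases and by peroxiredoxins. Glutathione and thioredoxin pass on the reducing power, and their reductases draw it from NADPH. KEAP1 keeps the transcription factor NRF2, the product of Nfe2l2, low until oxidants or electrophiles release it, after which NRF2 binds antioxidant response elements of genes such as Nqo1, Hmox1, Gclc, Gclm, Srxn1, Txnrd1 and Slc7a11.

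No gene of the list with a row of its own differed between the groups at the threshold of the study. This threshold is a fold change over 1.5 together with an unadjusted p below 0.05. By limma 0 of 38 genes passed it, where 3.2% of all genes tested did, and 0 of 38 passed an adjusted p, where 0.0055% of all genes did. An unadjusted p under 0.05 alone was found for 2 genes, Gpx7 and Txnrd1, against 6.05% of all genes, and for 3 genes by the methods' t-test, against 5.12% of all genes. A fold change over 1.5 alone was found for 4 genes, Cat, Nqo1, Sod3 and Gclm, all lower in the Danshen-treated group, against 5.57% of all genes. The log2 difference, Danshen-treated minus diabetic, was below 0 for 25 of the 38 genes, where 51.6% of all genes were below 0. Its median over the list was −0.13, and over all genes −0.01, and the median ran from −0.25 to −0.02 when single arrays were left out. The listed genes were stronger than most, with a median log2 signal of 7.49 to 8.13 per array against 6.14 to 6.37 over all genes. Direction and median were not compared with those of genes of like signal. The 95% interval of the difference lay within a 2-fold change in either direction for 31 of the 38 genes and within a 1.5-fold change for 7. For the other genes a change of 1.5-fold was therefore not excluded by 3 arrays against 3. The adjusted p of the 38 genes ran from 0.782 to 0.998.

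**Figure D1:**
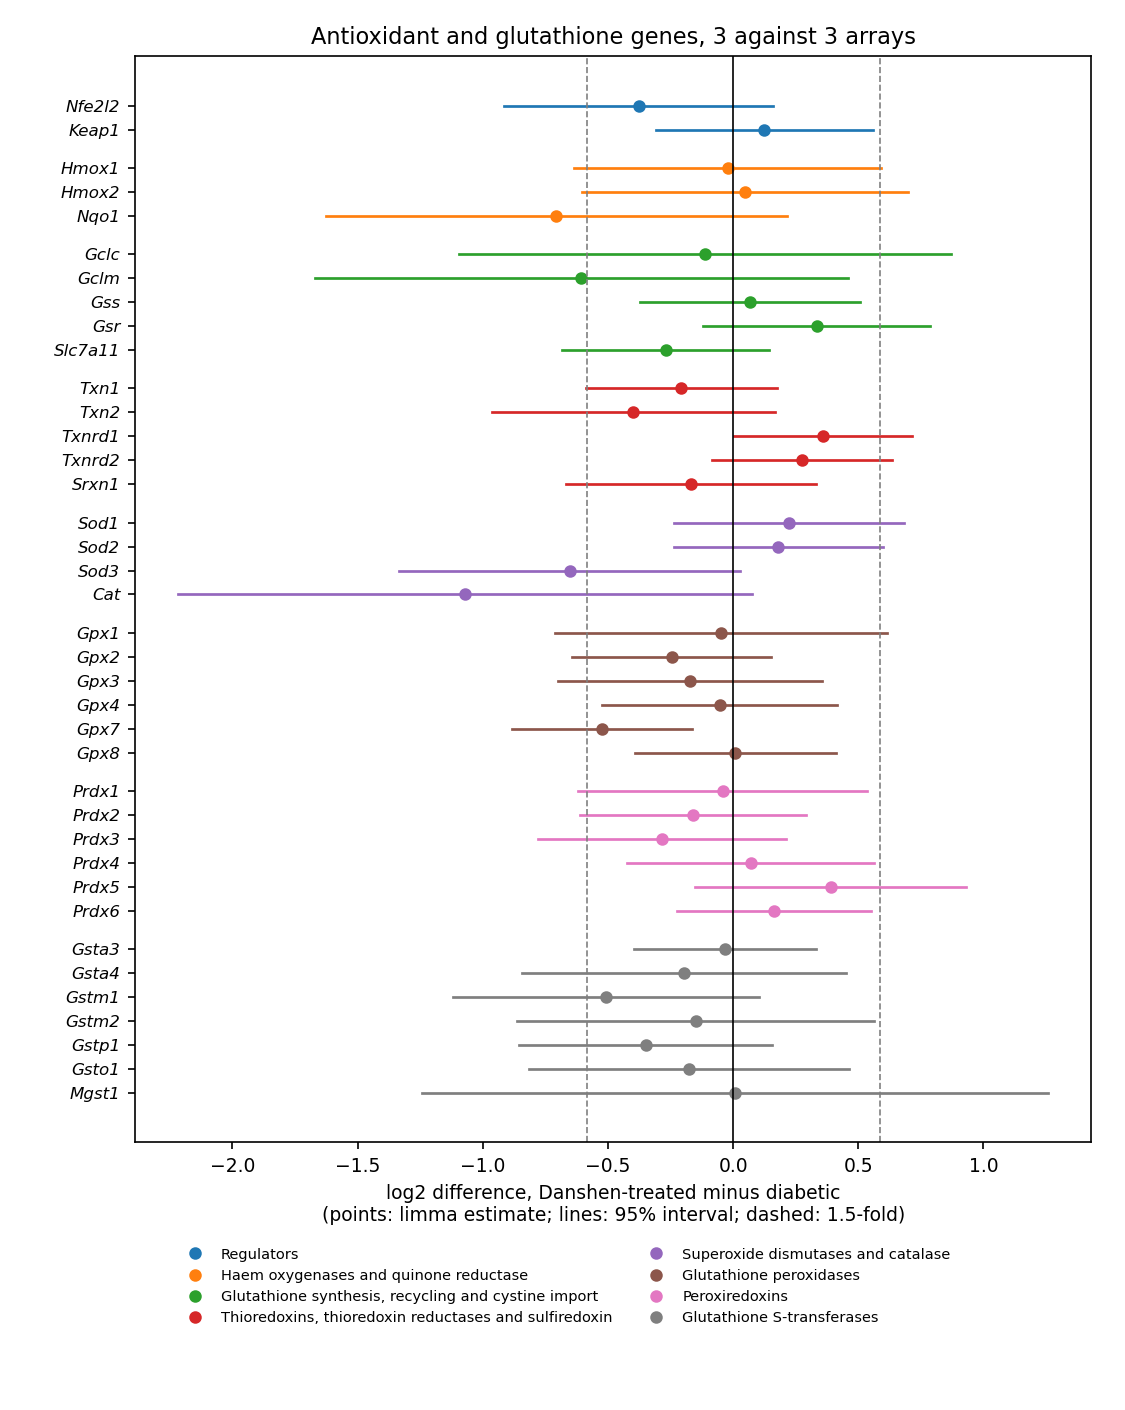
Log2 difference of each of the 38 genes, Danshen-treated minus diabetic (x axis), with the genes in rows and coloured by role. Points are limma estimates, lines are 95% intervals and dashed lines mark a 1.5-fold change. Only Gpx7 and Txnrd1 have intervals that leave out 0, and the intervals of Cat, Gclm, Nqo1 and Mgst1 are among the widest.

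The regulators came first in the comparison. Nfe2l2 had log2 signals of 9.50, 9.15 and 8.96 in Danshen-treated arrays 1, 2 and 3 and of 9.86, 9.73 and 9.16 in diabetic arrays 1, 2 and 3. The groups overlapped, because diabetic array 3 lay among the treated arrays, although within each same-numbered pair the treated array was lower. The difference was −0.38 with a standard error of 0.23 (limma, adjusted p = 0.784, exact permutation p = 0.20). Keap1, which encodes the cysteine-rich sensor that targets NRF2 for degradation, had 7.92, 7.73 and 7.47 in the treated and 7.77, 7.36 and 7.61 in the diabetic arrays. These values overlapped widely, and the difference of 0.12 had a 95% interval from −0.31 to 0.56.

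None of the classical NRF2 targets passed the threshold. Hmox1, which encodes the inducible haem oxygenase, had 7.23, 7.95 and 6.90 in the treated and 7.49, 7.46 and 7.20 in the diabetic arrays. The treated arrays spanned the diabetic ones on both sides, and the difference of −0.02 had a 95% interval from −0.64 to 0.59. It was 0.05 after quantile normalization and 0.01 after median centring, so no direction can be given. Nqo1, which encodes a quinone reductase, had 7.23, 6.83 and 6.82 in the treated arrays and 8.52, 7.76 and 6.71 in the diabetic arrays. Diabetic arrays 1 and 2 were above all treated arrays, and diabetic array 3 was the lowest of the 6. The resulting difference of −0.71 had a standard error of 0.40 (limma, adjusted p = 0.784, exact permutation p = 0.40).

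Glutamate-cysteine ligase, the rate-limiting enzyme of glutathione synthesis, has a catalytic subunit encoded by Gclc and a modifier subunit encoded by Gclm. Gclc had 7.65, 7.79 and 7.92 in the treated arrays and 9.04, 7.51 and 7.15 in the diabetic arrays. A single array, diabetic array 1, stood high, and without it the difference of −0.11 became 0.46. Gclm had 7.75, 7.60 and 7.21 in the treated arrays and 9.02, 8.42 and 6.94 in the diabetic arrays. As for Nqo1, diabetic arrays 1 and 2 lay highest and diabetic array 3 lowest, with a difference of −0.61 and a standard error of 0.47 (limma, adjusted p = 0.800). Slc7a11, the cystine importer that feeds this synthesis, had 7.17, 7.44 and 7.26 in the treated and 7.67, 7.72 and 7.29 in the diabetic arrays. The treated array was the lower in each same-numbered pair, but the groups overlapped and the 95% interval of the difference of −0.27 reached from −0.68 to 0.14. Srxn1, which encodes the sulfiredoxin that repairs overoxidized peroxiredoxins, had 5.98, 5.55 and 5.98 in the treated and 5.98, 6.34 and 5.70 in the diabetic arrays. Its groups overlapped, with a difference of −0.17 (95% interval from −0.67 to 0.33).

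Txnrd1 and Txnrd2, the cytosolic and mitochondrial thioredoxin reductases, were the 2 genes whose treated arrays all lay above the diabetic arrays. Txnrd1 had 7.94, 7.94 and 7.80 in the treated arrays and 7.58, 7.41 and 7.61 in the diabetic arrays. The gap between the groups was 0.19, and the difference was 0.36 with a standard error of 0.15 (limma, unadjusted p = 0.0474, adjusted p = 0.782, exact permutation p = 0.10). Txnrd2 had 6.19, 6.03 and 6.04 in the treated arrays and 5.94, 5.71 and 5.79 in the diabetic arrays. The groups were set apart by 0.08 only, and the difference was 0.28 with a standard error of 0.16 (limma, adjusted p = 0.784). Non-overlap was found for 3 of the 38 genes, 2 higher and 1 lower, where it was found for 10.7% of all genes, 6.43% higher and 4.3% lower. For 3 arrays against 3 the smallest two-sided exact permutation p is 0.10, which is the p of each of these genes.

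The antioxidant response element, to which NRF2 binds, has the core TGACNNNGC, and the promoters of the list were searched for it. RefSeq promoters of build GRCr8, with 250 bases before and 50 after the start of the gene, were matched by symbol to 33 of the 39 listed genes. The core, on either strand, was present in 11 of them (33.3%), against 14.1% of the 14564 genes tested on the array with a promoter. The list was written by function with classical NRF2 targets in it, so the shares are a description and were not tested. The 11 genes were Sod2, Gstp1, Prdx5, Gclm, Nfe2l2, Prdx1, Gpx2, Txnrd1, Gsta3, Hmox2 and Prdx4. In Gstp1 (TGACTCAGC) and Prdx1 (GCTGAGTCA on the other strand) the match also holds the AP-1 motif TGACTCA. Gclm, Nfe2l2 and Txnrd1 are the genes with the core among the regulators, the classical NRF2 targets and the genes with a nominal p under 0.05, a fold change over 1.5 or no overlap. Their promoters are shown for that reason. The differences of these genes were −0.61, −0.38 and 0.36, with adjusted p of 0.800, 0.784 and 0.782 from limma. Each is written 5′ to 3′ on the strand of the gene, with the core in capitals.
Gclm promoter, chr2:213031885-213032184, plus strand: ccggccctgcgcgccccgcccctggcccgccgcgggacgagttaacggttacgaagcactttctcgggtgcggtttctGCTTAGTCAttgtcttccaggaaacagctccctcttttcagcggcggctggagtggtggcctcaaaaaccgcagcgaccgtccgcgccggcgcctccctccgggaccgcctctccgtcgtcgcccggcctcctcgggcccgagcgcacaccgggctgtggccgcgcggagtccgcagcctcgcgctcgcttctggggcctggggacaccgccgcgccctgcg
Nfe2l2 promoter, chr3:81028950-81029249, minus strand: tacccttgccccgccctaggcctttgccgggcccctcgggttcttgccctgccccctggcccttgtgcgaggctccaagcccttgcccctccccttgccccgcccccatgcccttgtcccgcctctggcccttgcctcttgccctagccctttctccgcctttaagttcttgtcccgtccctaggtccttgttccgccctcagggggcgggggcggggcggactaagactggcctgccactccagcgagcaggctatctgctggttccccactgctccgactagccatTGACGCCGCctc
Txnrd1 promoter, chr7:22755855-22756154, minus strand: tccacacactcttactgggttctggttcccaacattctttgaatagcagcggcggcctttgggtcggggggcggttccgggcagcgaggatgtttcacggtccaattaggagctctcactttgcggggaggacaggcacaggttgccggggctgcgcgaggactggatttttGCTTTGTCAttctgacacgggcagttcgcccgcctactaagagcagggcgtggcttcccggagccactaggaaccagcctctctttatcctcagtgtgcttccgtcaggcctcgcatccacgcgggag
The core lies before the start in Gclm and Txnrd1, on the strand opposite to the gene in both, and after the start in Nfe2l2. A match of these letters is a description of the sequence. Bases farther from the start were not searched, so a gene without a match may hold the core there.

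Gpx7 was the gene with arrays that did not overlap in the other direction. It encodes a glutathione peroxidase-like enzyme of the endoplasmic reticulum with cysteine in place of selenocysteine at its active site. Gpx7 had 5.54, 5.82 and 5.64 in the treated arrays and 6.25, 6.19 and 6.14 in the diabetic arrays. The diabetic arrays agreed within an SD of 0.05 and lay 0.32 above the highest treated array. The difference was −0.52 with a standard error of 0.16, the smallest unadjusted p of the list (0.00987, adjusted p = 0.782 from limma), and it stayed short of a 1.5-fold change. Without Danshen-treated array 2 the difference was −0.60, which passed the threshold of the study.

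The largest difference of the list was that of Cat, which encodes catalase, the peroxisomal enzyme that splits hydrogen peroxide. Cat had 9.75, 9.36 and 8.88 in the treated arrays and 11.36, 10.67 and 9.18 in the diabetic arrays. The mean was 9.33 ± 0.44 (SD, n = 3) in the treated and 10.4 ± 1.11 (SD, n = 3) in the diabetic group, and diabetic array 3 lay within the treated range. The difference of −1.07 had a standard error of 0.50 (limma, unadjusted p = 0.0635, adjusted p = 0.782, exact permutation p = 0.30). Sod3, the extracellular superoxide dismutase, had 8.73, 8.80 and 8.69 in the treated arrays and 9.91, 9.60 and 8.67 in the diabetic arrays. The treated arrays differed by little, with an SD of 0.06, while diabetic arrays 1 and 2 stood far above them and diabetic array 3 just below. The difference of −0.65 had a standard error of 0.30 (limma, adjusted p = 0.782, exact permutation p = 0.40). By contrast, the dismutases inside the cell had differences of 0.22 (Sod1, cytosolic) and 0.18 (Sod2, mitochondrial), with 95% intervals from −0.23 to 0.68 and from −0.24 to 0.60. Whether these differ from that of Sod3 was not tested.

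**Figure D2:**
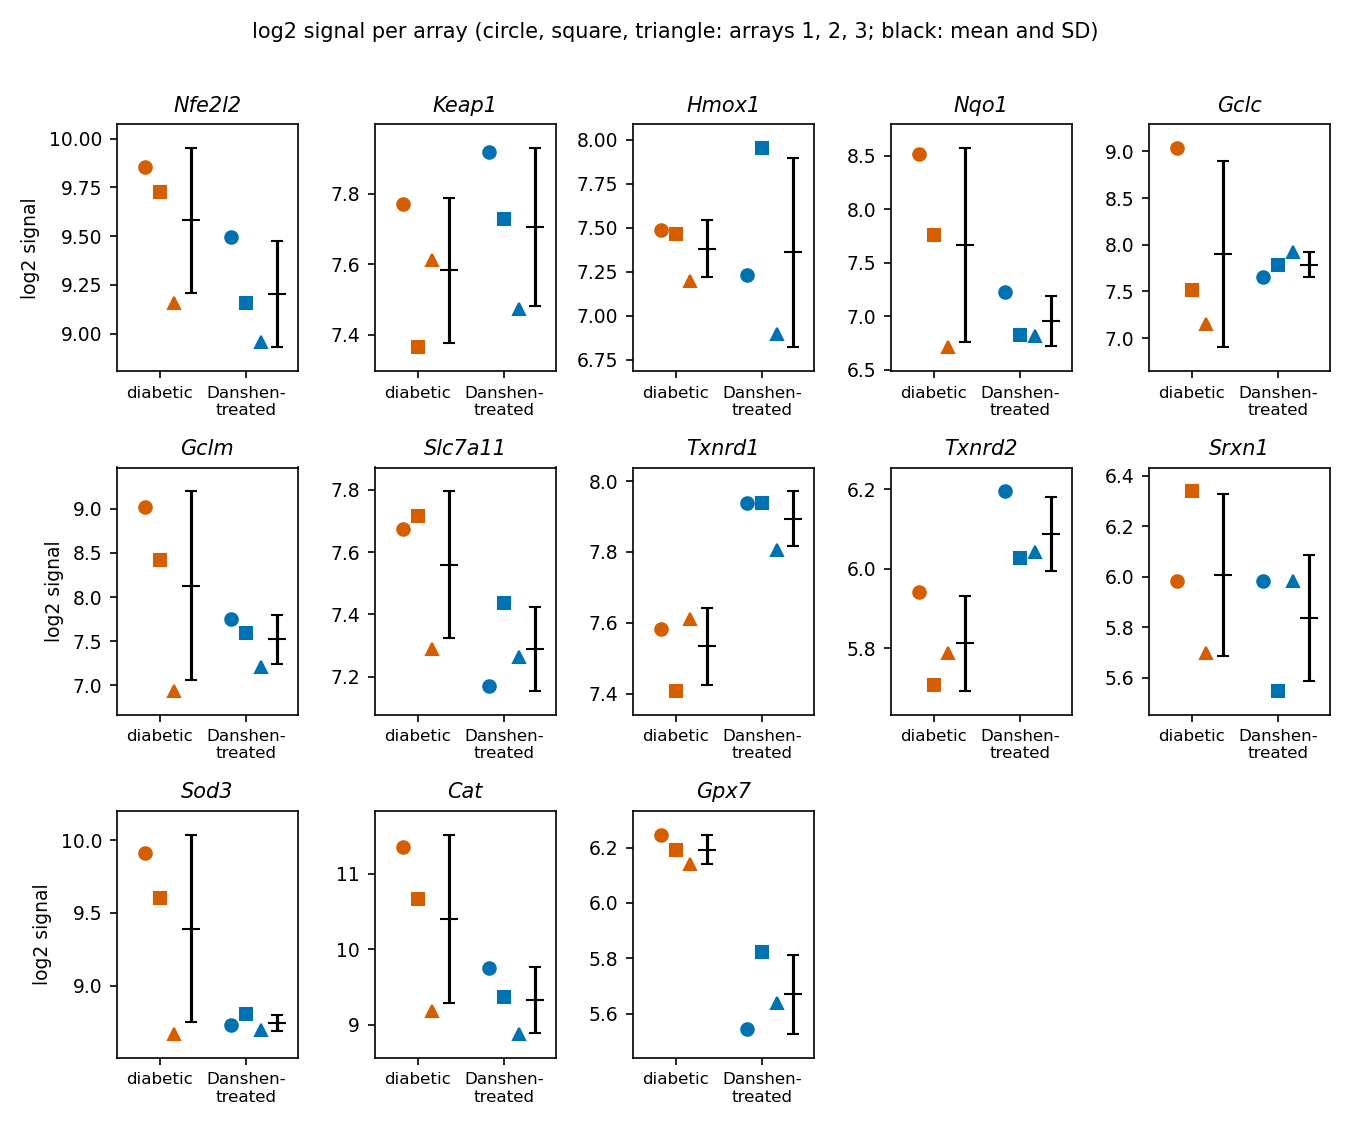
Log2 signal (y axis) of 13 genes (the regulators, the classical NRF2 targets and the genes with a nominal p under 0.05, a fold change over 1.5 or no overlap), with the diabetic group in orange and the Danshen-treated group in blue. Circles, squares and triangles are arrays 1, 2 and 3, and black bars are the mean and SD. Diabetic array 3 (orange triangle) lies with the treated arrays for Cat, Sod3, Nqo1 and Gclm, and the groups stand apart only for Txnrd1, Txnrd2 and Gpx7.

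Same-numbered arrays deviated together over all genes, as described with the processing, but neither the labels nor the study pair them. With the replicate number as a block 3 of the 38 genes passed the threshold of the study, where 4.62% of all genes did. These were Cat, Sod3 and Nqo1, with unadjusted p of 0.00548, 0.0331 and 0.0384 and adjusted p of 0.293, 0.356 and 0.367 from limma. Within pairs, the Cat difference was −1.61, −1.30 and −0.30 for arrays 1, 2 and 3. Sod3 (−1.18, −0.80 and 0.03) and Nqo1 (−1.29, −0.94 and 0.11) were lower in the treated array of pairs 1 and 2 only. Over the list, 12 of the 38 genes had the same direction in all 3 pairs, 10 lower and 2 higher, where 37.1% of all genes did, 19.6% lower and 17.6% higher.

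The SD was larger in the diabetic than in the treated group for 23 of the 38 genes (60.5%), as it was for 60.2% of all genes. Diabetic arrays 1 and 2 were both above the other 4 arrays for 12 of the 38 genes (31.6%), against 20% of all genes, and both below them for 2 (5.26%), against 12.2%. The 12 genes were Nfe2l2, Nqo1, Gclm, Slc7a11, Txn1, Txn2, Sod3, Cat, Gpx7, Prdx3, Gsta4 and Gstm1. The gap from the lower of diabetic arrays 1 and 2 to the next array was 0.92 for Cat, 0.80 for Sod3, 0.75 for Gstm1, 0.67 for Gclm and 0.54 for Nqo1, and it was 0.03 for Txn1. Diabetic array 1 was the highest of the 6 for 17 genes (44.7%, against 23.2% of all genes), and Danshen-treated array 3 was the lowest for 16 (42.1%, against 23.5%). An SD above 0.5 was seen for 9 genes in the diabetic group (23.7%, against 13.4% of all genes) and for 5 in the treated group (13.2%, against 5.66%). The listed genes were stronger than most, and the arrays differed at strong signals. The 90th percentile over all genes was 8.61 in diabetic arrays 1 and 2, 8.29 in diabetic array 3 and 8.23 to 8.50 in the treated arrays. These shares were not compared with those of genes of like signal, so they are not shown to be particular to the list.

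**Figure D3:**
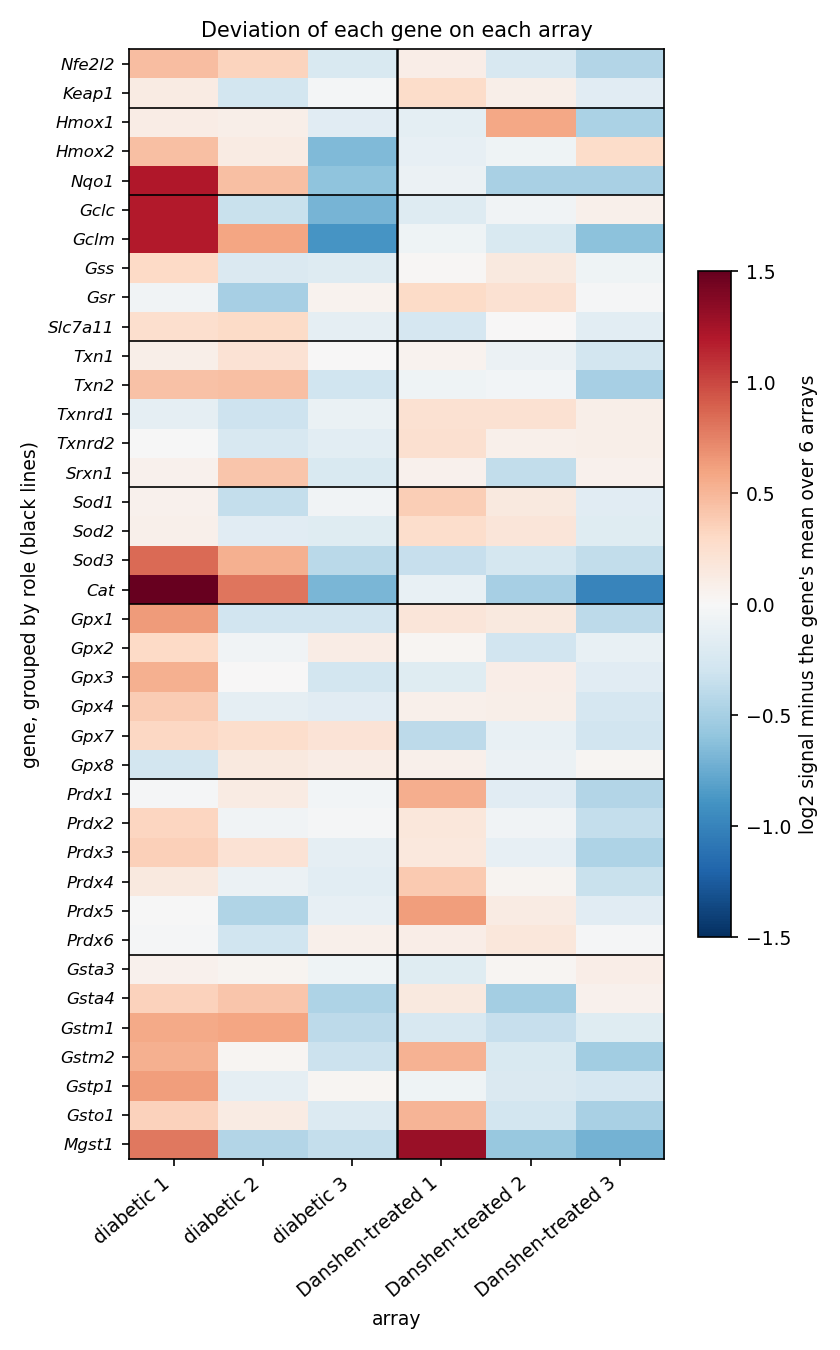
Deviation of the log2 signal from the mean of the gene over the 6 arrays (colour), with arrays in columns and genes in rows grouped by role. Red cells of diabetic arrays 1 and 2 mark Cat, Sod3, Nqo1, Gclm and Gstm1, while diabetic array 3 is blue for the same genes.

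The calls turned with diabetic array 3. Without it 7 of the 38 genes passed the threshold of the study, all lower in the treated group, where 10.9% of all genes passed. They were Nfe2l2 (−0.59), Nqo1 (−1.18), Gclm (−1.20), Txn2 (−0.65), Sod3 (−1.02), Cat (−1.68) and Gstm1 (−0.83). Cat and Sod3, with adjusted p of 0.0382 and 0.0381 from limma, also passed after adjustment, as 1.71% of all genes did. With neither array numbered 3, 5 of the 38 genes passed (Nqo1, Gclm, Sod3, Cat and Gstm1), where 8.16% of all genes did, and none passed after adjustment. The same 5 genes were called with array weights, against 7.5% of all genes. Without any one of the other arrays no more than 1 gene passed, where 1.78% to 3.69% of all genes did.

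The summed linear signals of markers of intestinal epithelium, of corneal and scleral stroma, of lens and of Muller glia were higher in every diabetic array than in every treated array, and those of the other lists overlapped between the groups. Strong genes weigh most in such sums. The mean log2 signals overlapped for lens (11.2 to 11.6 treated, 11.4 to 11.7 diabetic) and for Muller glia (8.57 to 8.72 treated, 8.68 to 9.02 diabetic). In the diabetic group the summed linear signal of 14 of 15 listed intestinal epithelium markers was 589 to 1033 and in the treated group 322 to 380. At the threshold of the study 9 of them were lower in the treated group, where 2.28% of all genes were. Of these, Fabp1, Fabp2, Si, Reg3b, Reg3g and Guca2a had been chosen by the study on these same arrays. The mean log2 signal of the 14 markers was 5.83, 5.50 and 5.15 in diabetic arrays 1, 2 and 3 and 4.42, 4.40 and 4.59 in the treated arrays. Leukocyte markers (12 of 12) summed to 1480 to 2485 and 1153 to 2064, liver markers (10 of 12) to 473 to 1264 and 252 to 531, and corneal and scleral stroma markers to 14436 to 15812 and 10147 to 12705, in the same order of groups. Of these lists, 1, 2 and 4 markers were lower at the threshold, where 2.28% of all genes were. The 4 stroma markers, Kera, Prelp, Fmod and Chad, had been chosen by the study on these same arrays. Photoreceptor markers summed to 24724 to 32538 in the diabetic and 22163 to 25975 in the treated group, and none of the 11 passed. Nor did any marker of Muller glia (7 of 9 measured), lens, retinal pigment epithelium (9 of 9) or red blood cells (5 of 9). The median difference was −0.34 for photoreceptors, with 10 of 11 markers below 0, and −0.33 for Muller glia. It was −0.22 for lens, −0.22 for retinal pigment epithelium and 0.21 for red blood cells, beside −0.13 for the 38 genes. The part of these cells in the signals of Cat, Sod3, Nqo1 and Gclm was not tested, and in such bulk RNA fewer cells of a type and less RNA per cell cannot be told apart.

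**Figure D4:**
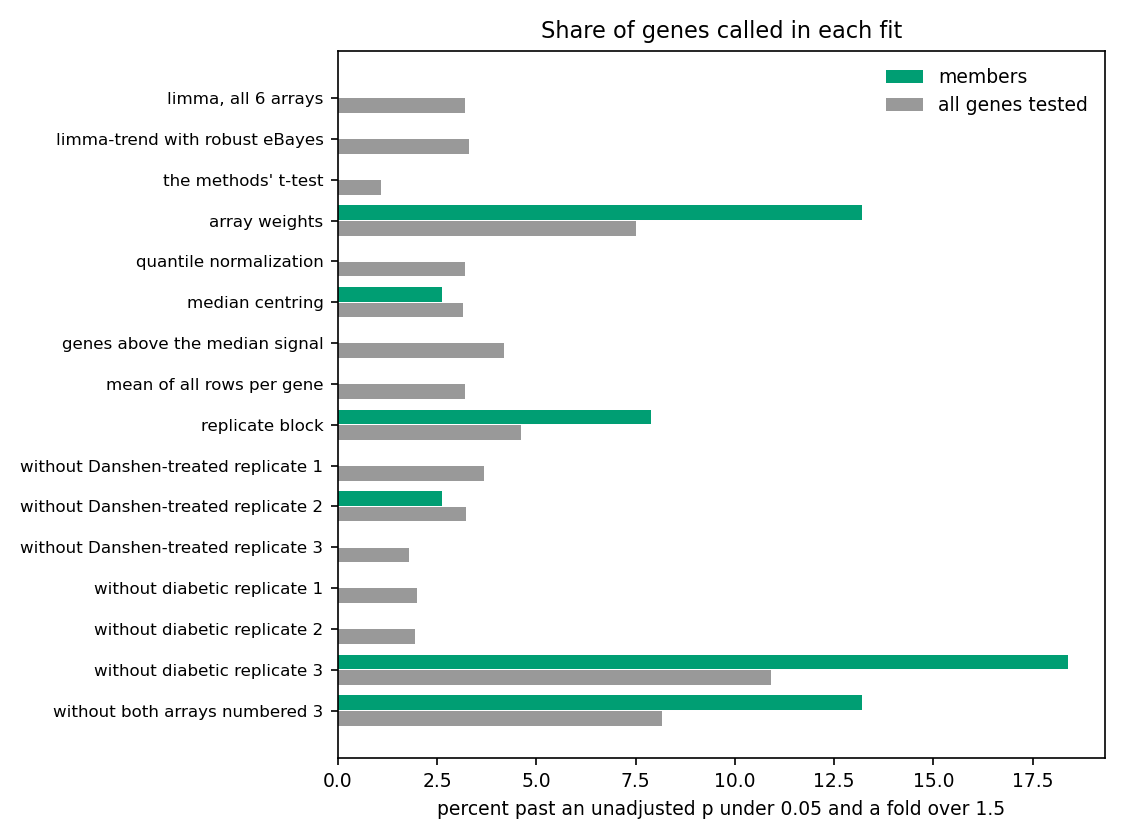
Share of the 38 genes (green) and of all genes tested (grey) past an unadjusted p under 0.05 and a fold over 1.5 (x axis, percent) in each of 16 fits (rows). The share of the list is 0 in the limma comparison of all 6 arrays, 13.2% with array weights, 7.89% with the replicate block and 18.4% without diabetic array 3, where it is 7.5%, 4.62% and 10.9% over all genes in the last 3 of these.

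None of the other genes of glutathione synthesis, the thioredoxin system and haem breakdown passed the threshold, with differences from −0.40 to 0.33. Gss, which completes glutathione, had a difference of 0.07 with a 95% interval from −0.37 to 0.51. Gsr, the reductase that regenerates glutathione, was at 8.11, 8.04 and 7.81 in the treated and 7.76, 7.32 and 7.88 in the diabetic arrays, and the groups overlapped through diabetic array 3 alone (difference 0.33, 95% interval from −0.12 to 0.79). Txn1, the cytosolic thioredoxin, had a difference of −0.21, which was 0.19 after quantile normalization, so its direction depended on the scaling. Txn2, the mitochondrial thioredoxin, had −0.40 with a standard error of 0.25. Hmox2, the constitutive haem oxygenase, had 0.05 (95% interval from −0.60 to 0.70).

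Among the selenium-dependent glutathione peroxidases, Gpx1 (cytosolic) and Gpx4, which reduces lipid peroxides in membranes, both had a difference of −0.05, with 95% intervals from −0.71 to 0.62 and from −0.52 to 0.42. After quantile normalization they were at 0.02 and 0.06, so neither has a settled direction. Gpx2, a peroxidase of the gut epithelium, was at 7.05, 6.72 and 6.90 in the treated and 7.31, 6.96 and 7.13 in the diabetic arrays. The treated array was the lower in each same-numbered pair, but the groups overlapped, with a difference of −0.24 (95% interval from −0.64 to 0.15). Gpx3, the secreted peroxidase of plasma, had −0.17. Gpx8, which like Gpx7 belongs to the endoplasmic reticulum and lacks selenium, had 0.01 with a 95% interval from −0.39 to 0.41 (−0.05 after quantile normalization), and whether it differed from Gpx7 was not tested.

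The peroxiredoxins were spread on both sides of 0. The highest was Prdx5, found in mitochondria, peroxisomes and the cytosol, with 8.55, 8.05 and 7.75 in the treated and 7.92, 7.47 and 7.80 in the diabetic arrays. The treated arrays 1 and 2 were above all diabetic arrays and treated array 3 was inside their range, with a difference of 0.39 (95% interval from −0.15 to 0.93). Prdx3, the mitochondrial form, had the lowest difference, −0.28, and the treated array was the lower in each pair. Prdx1, Prdx2, Prdx4 and Prdx6 had −0.04, −0.16, 0.07 and 0.16, and Prdx1 was at 0.08 after quantile normalization.

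Of the 7 glutathione S-transferases with a row of their own, which couple glutathione to electrophiles, 6 had a difference below 0, although Gsta3 was no longer below 0 after median centring. Gstm1 had 6.38, 6.27 and 6.43 in the treated and 7.18, 7.20 and 6.23 in the diabetic arrays. Its diabetic arrays 1 and 2 lay together well above the rest, and the difference of −0.51 had a standard error of 0.27 (limma, adjusted p = 0.782). Gstp1 had −0.35, Gsta4 −0.20, Gsto1 −0.17 and Gstm2 −0.15. Gsta3, at −0.03, had signals of 3.33 to 3.61, near the 10th percentile of all genes on these arrays (3.42 to 3.84). Probes of these families may bind close paralogs, so single members are uncertain.

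Mgst1, a microsomal transferase with peroxidase activity, varied most between arrays of a group. It was at 10.29, 8.42 and 8.29 in the treated and 9.79, 8.55 and 8.63 in the diabetic arrays. Array 1 was the highest of each group by more than 1 log2 unit, and the difference was 0.01 with the widest interval of the list, from −1.24 to 1.26. The rows shared by Gstt1 and Gstt3 cannot be given to either gene. On one of them the treated arrays were at 7.69, 7.55 and 7.58 and the diabetic arrays at 9.32, 8.82 and 7.63. Diabetic arrays 1 and 2 were high there too. The difference was −0.98 with a standard error of 0.40 (limma, unadjusted p = 0.0415, adjusted p = 0.737 over all probe rows). This row passed the threshold of the study, as 3.2% of all genes with a row of their own did, but it is counted for no gene. On the other row the difference was −0.20.

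Genes around the list were read from 5 further lists written by role, of which 121 genes were measured. At the threshold of the study 4 of the 121 passed, all lower in the treated group, where 2.28% of all genes were lower and 0.925% higher. Of 32 other glutathione enzymes 1 passed, the mitochondrial and peroxisomal transferase gene Gstk1, with 6.80, 6.51 and 6.36 in the treated and 8.18, 8.25 and 6.67 in the diabetic arrays (difference −1.14, standard error 0.40). Of 29 other genes of the NRF2 system 2 passed, the ferritin light chain gene Ftl1 (−0.72), which the study had chosen on these same arrays, and Dpp3 (−1.06), whose protein competes with NRF2 for KEAP1. Of 30 other selenoprotein and thiol repair genes 1 passed, Selenop (−0.60), which encodes the plasma carrier of selenium. The adjusted p was 0.782 from limma for each of these 4 genes. None passed among 12 genes of NADPH supply or 18 sources of superoxide and nitric oxide, where Me2, a malic enzyme gene (0.28), and Duox1, an oxidase gene (−0.45), had the smallest p. The median difference of the lists was −0.22 for other glutathione enzymes, −0.05 for the NRF2 system, −0.09 for selenoproteins and thiol repair, 0.04 for NADPH supply and 0.02 for the sources, beside −0.01 over all genes. The count of 4 became 1 without Danshen-treated array 3 (1.78% of all genes passed) or diabetic array 1 (1.99%), and 2 without diabetic array 2 (1.94%). It became 9 without Danshen-treated array 1 (3.69%), 15 without diabetic array 3 (10.9%) and 7 with the replicate number as a block (4.62%). Gstk1 and Dpp3 lost their calls without Danshen-treated array 2 or 3 or diabetic array 1 or 2, Selenop without Danshen-treated array 3 or diabetic array 1 or 2, and Ftl1 without diabetic array 1. Ftl1 and Selenop also lost them after quantile normalization, with differences of −0.41 and −0.50.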

How the data were processed

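Retinal RNA of Danshen-treated and untreated diabetic rats was hybridized to Affymetrix Rat Gene 2.0 ST arrays, with 3 arrays a group. Scanned images went through Expression Console 1.41, and the authors deposited a table of log2 signals with 36685 probe rows. How background, normalization and summarisation were handled is not given in the sources used. Groups and replicate numbers came from the sample labels, the dose from the study.

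The deposited log2 values were used without further normalization or a filter on weak signals. Rows were named with the annotation of the platform, and symbols were updated by gene identifier for 18394 rows. Of all rows 18511 had 1 symbol, 575 had several and 17599 had none, which are unnamed here. Genes were compared with lmFit and eBayes of limma (version 3.58.1, R 4.3.3), with statmod 1.5.0 loaded. The block was a fixed term for the replicate number in the model. The exact permutation test was two-sided over the 20 assignments of the arrays (SciPy 1.17.1). The fit was tested on simulated data. The listed genes, the 5 further lists, the lists of cell type markers and the tests were chosen with earlier results of these data known. Values per array are given for genes with an unadjusted p under 0.05, a fold change of at least 1.5 or no overlap, for Nfe2l2, Keap1 and 7 classical targets, and for Gsr, Gpx2, Prdx5, Gstm1 and Mgst1, which were chosen after their values were seen. From the further lists the genes past the threshold, or else that with the smallest p, are named.

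Neither the labels nor the study pair the arrays by number. Deviations from the group means correlated between same-numbered arrays at 0.274, 0.292 and 0.445 over all genes, and over the 38 genes at 0.215, −0.0115 and −0.000939. Because of the values over all genes the numbers were treated as pairs in the replicate block and in the statements on same-numbered pairs. The main comparison used no pairing, and whether the arrays were truly paired was not tested. Both arrays numbered 3 also had a narrower range of signals than the other arrays. The number of arrays, 3 a group, limits the precision. The alternatives were limma-trend with robust settings, the methods' t-test, quantile normalization, array weights, centring on the median, a filter at the median signal, the mean of all rows per gene, the replicate block, other thresholds, a fold from linear signals, and fits without single arrays or without both arrays numbered 3. Plots used matplotlib 3.10.9 under Python 3.11.15 (pandas 2.3.3).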

Additional observations from a re-analysis of the deposited data

How the results depend on the processing

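With 3 arrays a group, 0 of 38 genes past the threshold is a count with little power. It ran from 0 to 7 when single arrays were left out, where 1.78% to 10.9% of all genes passed. In the following the share of all genes is in parentheses. The count was 5 with array weights (7.5%), 1, Sod3, after median centring (3.14%), 3 with the replicate block (4.62%) and 5 without both arrays numbered 3 (8.16%). It was 2 at an unadjusted p alone (6.05%) and 4 at the fold change alone (5.57%). It was 0 with the methods' t-test (1.08%), limma-trend (3.3%), quantile normalization (3.19%), the genes above the median signal (4.19%) and the mean of rows (3.2%), and also with the fold from linear signals. The block changed no call of another listed gene. The count of genes without overlap was 3 (10.7% of all genes), and it was 7 after quantile normalization (14.7%), 1 among genes above the median signal (11.4%), 4 to 15 without single arrays (15.9% to 37.5%), 21 without both arrays numbered 3 (46.7%), and 12 when counted as 1 direction in all pairs (replicate block, 37.1%), with the share of all genes under the same setting in parentheses, where fewer arrays or a looser rule make non-overlap easier. The 4 calls of the further lists became 1 with the methods' t-test (1.08% of all genes), 2 after quantile normalization (3.19%) and 9 with array weights (7.5%). They became 7 with the replicate block (4.62%), 9 without both arrays numbered 3 (8.16%) and 1 to 15 without single arrays (1.78% to 10.9%). The median of the list stayed below 0 under each alternative that gave it.

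No listed gene called in any fit changed its sign, and the signs that turned belonged to genes with no call. With array weights they were those of Gpx1 (0.11), Gpx4 (0.033), Gpx8 (−0.0611), Hmox1 (0.14) and Hmox2 (−0.16). After quantile normalization they were those of Gpx1 (0.0187), Gpx4 (0.0624), Gpx8 (−0.0484), Hmox1 (0.0532), Prdx1 (0.0835) and Txn1 (0.19). After median centring they were those of Gsta3 (0.00164) and Hmox1 (0.0111). Without both arrays numbered 3 they were those of Hmox1 (0.12), Hmox2 (−0.39) and Prdx1 (0.14). Leaving out single arrays gave ranges of −0.49 to 0.46 for Gclc, −0.20 to 0.26 for Gpx1, −0.36 to 0.0529 for Gpx3, −0.15 to 0.12 for Gpx4, −0.12 to 0.0856 for Gpx8, −0.0219 to 0.24 for Gss, −0.0904 to 0.0504 for Gsta3, −0.48 to 0.00894 for Gsta4, −0.45 to 0.0766 for Gstm2, −0.47 to 0.0278 for Gsto1, −0.32 to 0.21 for Hmox1, −0.27 to 0.29 for Hmox2, −0.64 to 0.41 for Mgst1, −0.32 to 0.17 for Prdx1 and −0.11 to 0.25 for Prdx4. The cause was not tested.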
